A study of Mus musculus with 13 samples.

Results

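The genes described here encode the TGF-beta, activin and BMP signalling pathway: 47 genes out of 18193 with a probe set that names 1 gene, in whole brains of mouse embryos with and without Meg3. They were taken from a list of ligands, receptors, Smads, inhibitors and targets, drawn up because Meg3 RNA is reported to control this pathway, and not by their values. Each gene is represented by the probe set with the highest mean signal over all arrays. All 47 had one, and Ctgf is carried by the array annotation as Ccn2. The lists were split by role into 10 ligands, 10 receptors, 6 Smads, 9 intracellular inhibitors and adaptors, 8 extracellular regulators and 4 targets.

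Affymetrix mouse arrays measured embryos at embryonic day 18.5, 7 that lacked Meg3 (knock-out) and 6 that were wild-type, each array from the whole brain of 1 embryo. The embryos came from 5 litters. Litter 148 held 1 knock-out embryo, and litters 219, 238, 250 and 262 held both genotypes. For the stretch of Meg3 removed, the strain and the sex of the embryos, no statement was found in the labels. Meg3, a maternally expressed non-coding RNA of the Dlk1-Dio3 cluster, had a signal of 264 to 589 in knock-out brains and of 3109 to 6251 in wild-type brains, and no array overlapped the other genotype. Wild-type 2 and knock-out 1 had the highest 3′ to 5′ ratios of the Actb control probe sets, a measure of RNA quality, at 2.92 and 1.81 against 1.32 to 1.495 in the others. Of the markers of neurons, 12 of 12 had a probe set, with a summed signal of 90077 to 111401 in knock-out and 84128 to 111499 in wild-type brains.

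In this pathway a secreted dimer of the TGF-beta, activin or BMP type brings together type I and type II receptor kinases, which phosphorylate receptor Smads; these join Smad4 and enter the nucleus. TGF-betas and activins act mainly through Smad2 and Smad3, and BMPs through Smad1, Smad5 and Smad9, while inhibitory Smads, ubiquitin ligases, nuclear co-repressors and secreted antagonists limit the signal. In the developing brain BMPs from the dorsal midline and the meninges pattern the forebrain, and TGF-beta signalling is needed for normal vessels. In human breast cancer cells MEG3 RNA has been reported to bind GA-rich DNA near pathway genes such as TGFB2, TGFBR1 and SMAD2.

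No pathway gene differed between knock-out and wild-type brains past the threshold. Values were compared as log2(signal + 16) with limma across 12918 genes, with Benjamini-Hochberg adjustment over all of them and a threshold of 0.05. Smad9 lay below the filter on dim probe sets, at a signal of 56.9, and 46 members were tested. Of these, 0 passed, against 0.0232% of all genes, and the limma adjusted p of each was 1.00. At an unadjusted limma p under 0.05 there was 1 member, Tgif1, against 1.97% of all genes, and the exact permutation test over all 1716 splits of the arrays gave the same 1, against 2.08%. With exact permutation within litters only, 0 members had an unadjusted p under 0.05, against 3.23% of all genes. The genotypes' arrays did not overlap in 0 members, against 0.0774% of all genes.

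The members' median log2 change, knock-out minus wild-type, was 0.045, beside 0.044 over all genes tested. A higher knock-out mean was found for 28 members and a lower one for 18, against 65.4% of all genes higher. This split depends on how arrays are scaled to each other. It was 18 higher and 28 lower after quantile normalization (39.1% of all genes higher) and 21 and 25 after trimmed mean scaling (46.6%). After median centring, which moved the median of all genes to -0.15, it was 3 and 43 (12.3%). The 95% interval of the change lay within 1.5-fold either way for 41 of the 46 members, against 79.8% of all genes. The 5 whose intervals reached further were the ligands Tgfb3 and Bmp5, the latent TGF-beta binding protein Ltbp4, and the BMP antagonists Nog and Chrd. Both the number and the names depend on the scaling: 39 members stayed within this bound after trimmed mean scaling (82.6% of all genes), 34 after quantile normalization (79.2%) and 31 after median centring (69.5%). After median centring Tgfb3, Ltbp4, Nog and Chrd lay inside it, and the 15 outside were Bmp5 and 14 members within it before, Tgif1, Bmp6, Tgfbr3 and Inhba among them. Across the 13 arrays the highest signal of a tested member was 1.44 times (Inhbb) to 3.76 times (Nog) its lowest.

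**Figure D1:**
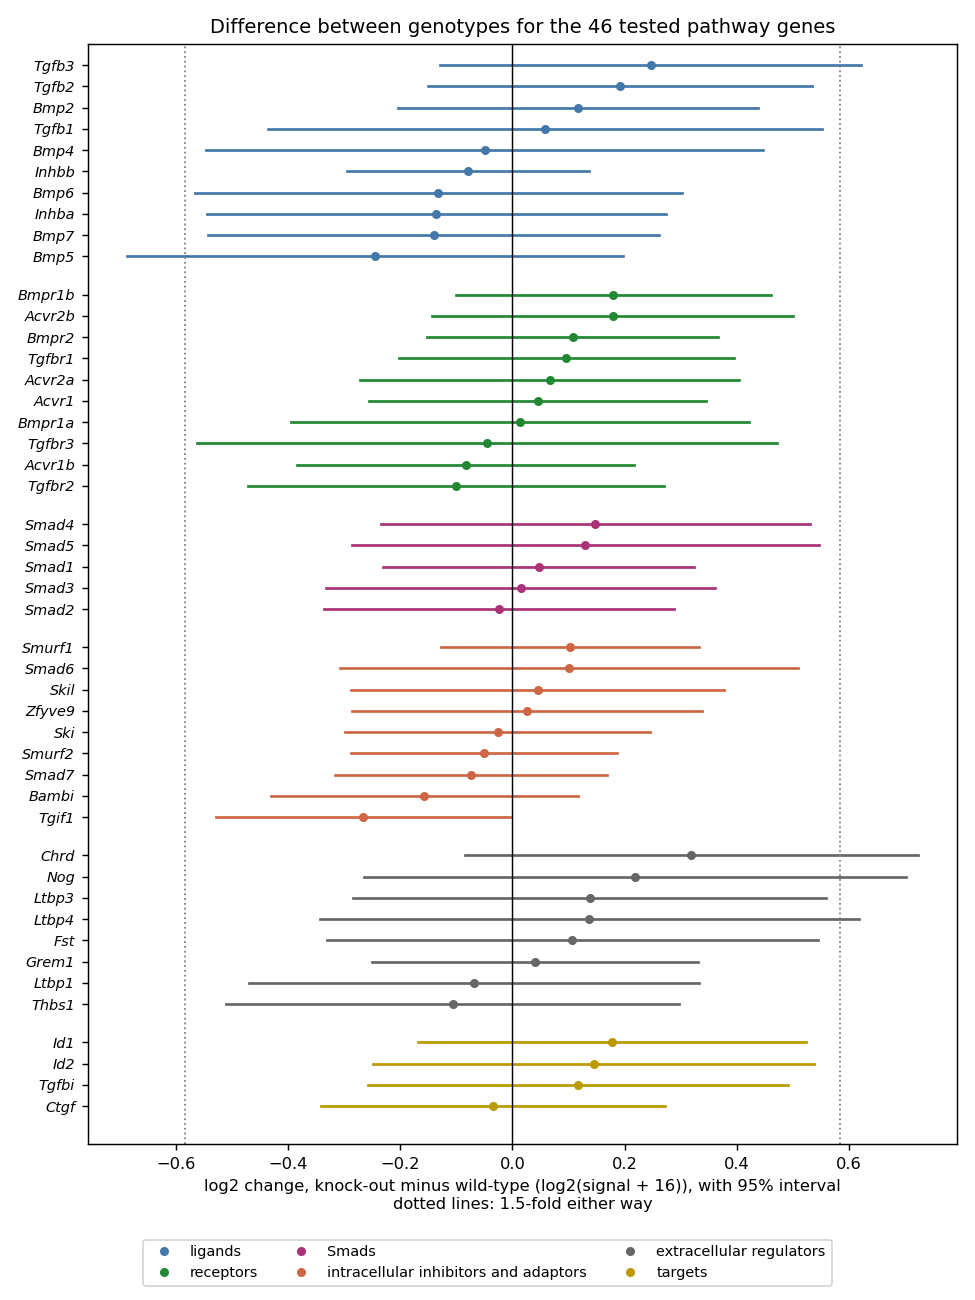
The plot of changes by role gives, for each of the 46 tested members, the log2 change from wild-type to knock-out on the log2(signal + 16) scale (point) and its 95% interval (line); colours mark the roles and dotted lines 1.5-fold either way. Tgif1 has the lowest point, at -0.27, Chrd the highest, at 0.32, and the intervals of 41 members stay between the dotted lines.

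The 10 ligands had 4 higher and 6 lower means in knock-out brains, with a median log2 change of -0.064, and 0 passed the test. Tgfb1, the TGF-beta of blood cells and vessels, had a signal of 111, 202 and 269 in knock-out brains (lowest, median, highest) and of 103, 200 and 250 in wild-type brains. Its log2 change was 0.057 ± 0.23 SE, and the ranges of the genotypes overlapped over most of their length. Tgfb2, the isoform made by developing neural and mesenchymal tissue, had 330, 481 and 576 in knock-out and 270, 400 and 498 in wild-type brains. Of the 7 knock-out arrays 3 lay above all wild-type arrays, and the log2 change was 0.19 ± 0.16 SE. The other Tgfb2 probe sets, all above the filter, had smaller changes of 0.13, 0.034 and 0.037. Tgfb3, the third isoform, had 105, 177 and 246 in knock-out and 98.7, 155 and 183 in wild-type brains. Again 3 knock-out arrays lay above all wild-type arrays. Between littermates Tgfb3 differed by 0.92 (litter 219), -0.15 (litter 238), 0.19 (litter 250) and -0.24 (litter 262), so the litters did not share a sign.

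Among the BMPs, Bmp5 had the largest negative difference. Its signal was 92.1, 211 and 270 in knock-out and 156, 246 and 322 in wild-type brains, a log2 change of -0.24 ± 0.21 SE. The lowest array of each genotype came from litter 262, and 2 wild-type arrays lay above all knock-out arrays. Its knock-out mean was lower in all 4 litters, with log2 differences of -0.16, -0.0055, -0.39 and -0.67. For the difference over all arrays, the exact permutation within litters gave p = 0.13. Bmp2, Bmp4, Bmp6 and Bmp7, which like Bmp5 signal through BMP receptors, had log2 changes of 0.12, -0.049, -0.13 and -0.14. Inhba and Inhbb, whose products dimerise into activins and inhibins, had changes of -0.14 and -0.079. Inhbb was also the steadiest member, at 416 to 545 in knock-out and 426 to 601 in wild-type brains.

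**Figure D2:**
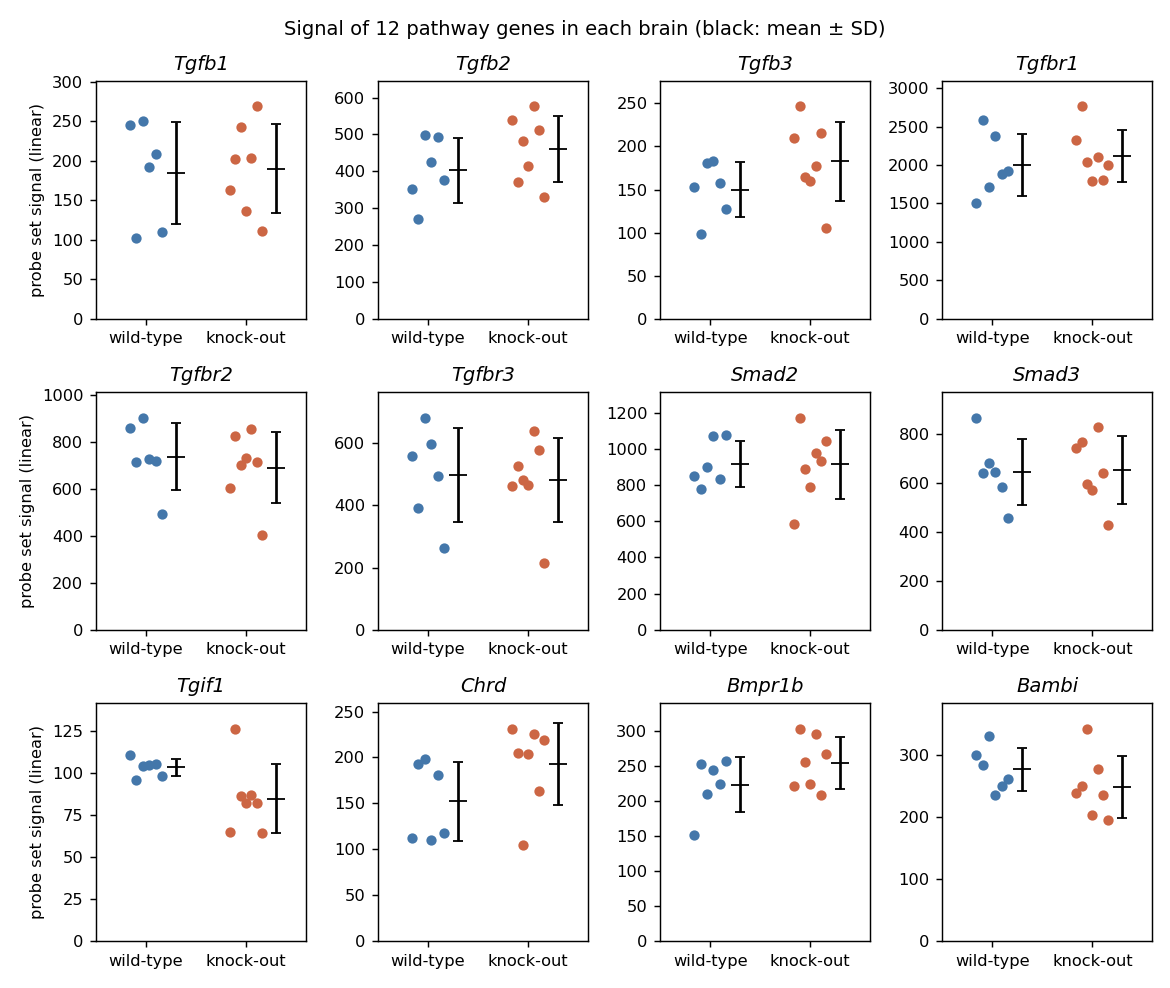
The plot of signals by genotype shows 12 members, with 1 point per brain, the linear probe set signal on the vertical axis from 0, and the mean ± SD in black. For Tgif1, 6 of 7 knock-out points lie below the wild-type points, and in each of the 12 panels the ranges of the genotypes overlap.

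The 10 receptors had 7 higher and 3 lower means, with a median log2 change of 0.055, and 0 passed the test. The 95% interval lay within 1.5-fold for 10 of the 10 with the deposited scaling, for 9 after quantile normalization or trimmed mean scaling (not Tgfbr3), and for 6 after median centring (not Acvr1b, Bmpr1a, Tgfbr2 and Tgfbr3). Tgfbr1, the type I kinase for TGF-beta, had a signal of 1793, 2041 and 2763 in knock-out and 1500, 1906 and 2582 in wild-type brains. Its log2 change was 0.096 ± 0.14 SE, with an interval from -0.20 to 0.39. The ranges overlapped, with 1 knock-out array above and 2 wild-type arrays below the other genotype. Tgfbr2, the type II kinase that binds TGF-beta first, had 403, 714 and 858 in knock-out and 494, 726 and 905 in wild-type brains, a log2 change of -0.10 ± 0.17 SE. Tgfbr3, the co-receptor betaglycan, had 214, 483 and 639 in knock-out and 262, 526 and 682 in wild-type brains, a log2 change of -0.046 ± 0.24 SE. For both receptors, the lowest array of each genotype came from litter 262. A dimmer Tgfbr3 probe set above the filter had the opposite sign, with a log2 change of 0.27 ± 0.15 SE.

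Bmpr1b, a type I BMP receptor, had 210, 256 and 304 in knock-out and 152, 234 and 257 in wild-type brains. Of the knock-out arrays 3 lay above all wild-type arrays, and its log2 change was 0.18 ± 0.13 SE. Its knock-out mean was higher in all 4 litters, with differences of 0.59, 0.17, 0.086 and 0.056. For the difference over all arrays, the exact permutation within litters gave p = 0.241. Acvr2b, a type II activin receptor, had 584, 684 and 932 in knock-out and 438, 652 and 776 in wild-type brains, and a log2 change of 0.18 ± 0.15 SE. Here 3 knock-out arrays lay above and 2 wild-type arrays below the other genotype. The remaining receptors had changes of -0.084 (Acvr1b, the activin type I kinase) to 0.11 (Bmpr2, the BMP type II kinase). Bmpr1a, with 6 probe sets, had changes from -0.30 to 0.18 among them.

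Among the Smads, Smad2, which carries TGF-beta and activin signals, had 585, 935 and 1173 in knock-out and 778, 874 and 1076 in wild-type brains. The knock-out arrays ran past the wild-type range at both ends, and the log2 change was -0.024 ± 0.15 SE, with an interval from -0.34 to 0.29. Smad3, its partner, had 428, 643 and 831 in knock-out and 457, 643 and 868 in wild-type brains. The medians did not differ to 3 digits, and the log2 change was 0.014 ± 0.16 SE. Smad4, the common partner of all receptor Smads, had a log2 change of 0.15, and the BMP-directed Smad1 and Smad5 had 0.047 and 0.13. A Smad1 probe set nearly as bright (mean signal 3123 against 3178) had -0.083, and a dimmer one 0.065. Smad9, also BMP-directed, was dim in every brain, at 17.9, 31.6 and 36.1 in knock-out and 3.83, 38.4 and 49.1 in wild-type brains. The dimmest member above the filter was Ltbp1.

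Among the intracellular inhibitors and adaptors, Tgif1, a homeodomain co-repressor that binds Smad2 and Smad3, had the smallest limma p of the members. Its signal was 64.1, 82.4 and 126 in knock-out and 95.9, 105 and 111 in wild-type brains. Of the 7 knock-out arrays, 6 lay below all wild-type arrays and the other, knock-out 2, lay above them all. The log2 change was -0.27 ± 0.12 SE (unadjusted limma p = 0.0468, adjusted p = 1.00; exact permutation p = 0.0443). Littermates differed by 0.26 in litter 219, which holds knock-out 2, and by -0.27, -0.27 and -0.51 in litters 238, 250 and 262. For the difference over all arrays, the exact permutation within litters gave p = 0.0833. The size of the change moved with the scaling, to -0.47 after quantile normalization and -0.46 after median centring. It has 1 probe set, which reads several transcripts of the gene as its name ending in _a_at denotes.

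Tgif2, the paralogue of Tgif1 and a gene outside the members, had a mean signal of 521 without Meg3 (SD 54.1, n = 7) and of 628 with it (SD 104, n = 6). Its log2 change was -0.25 ± 0.12 SE (unadjusted limma p = 0.0456, adjusted p = 1.00; exact permutation p = 0.0344), and it was below 0 in all 4 litters. For the difference over all arrays, the exact permutation within litters gave an unadjusted p of 0.0278, a test in which 3.23% of all genes were under 0.05. After limma adjustment over all genes neither TGIF gene passed, with knock-out means at 0.831 and 0.839 of the wild-type ones on the log2(signal + 16) scale. Bambi, a receptor-like protein without a kinase that blocks type I receptors, had 194, 239 and 342 in knock-out and 235, 272 and 330 in wild-type brains. Of its knock-out arrays 3 lay below and 1 above all wild-type arrays, with a log2 change of -0.16 ± 0.13 SE. The inhibitory Smads, Smad6 and Smad7, had changes of 0.10 and -0.074, and the co-repressors Ski and Skil had -0.027 and 0.045. Smurf1 and Smurf2, ubiquitin ligases for Smads and receptors, had 0.10 and -0.051, and Zfyve9, the anchor that presents Smad2 to the receptor, had 0.026. The other Smurf2 probe sets had 0.18 and 0.064, and the other Smurf1 probe set had -0.089.

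Among the extracellular regulators, Chrd, encoding the BMP antagonist chordin, had the largest positive difference. Its signal was 105, 204 and 231 in knock-out and 110, 149 and 198 in wild-type brains, a log2 change of 0.32 ± 0.19 SE with an interval from -0.09 to 0.72. Of the knock-out arrays 5 lay above all wild-type arrays and 1, knock-out 3, below them. Nog, encoding the BMP antagonist noggin, had 91.6, 126 and 163 in knock-out and 43.5, 129 and 161 in wild-type brains, a log2 change of 0.22 ± 0.23 SE. The genotype medians lay close together, and the lowest wild-type value was that of wild-type 2, the array with the highest 3′ to 5′ ratio. Wild-type 2 was the lowest wild-type array for 13 of 46 members (28.3%, beside 30.8% of all genes). Tgfb1, Tgfb2, Tgfb3, Acvr2b and Id1 were among them. Fst, whose product follistatin binds activin, and Grem1, whose product gremlin binds BMPs, had changes of 0.11 and 0.040. Ltbp1, Ltbp3 and Ltbp4, which hold latent TGF-beta in the matrix, had -0.069, 0.14 and 0.14, and Thbs1, an activator of latent TGF-beta, had -0.11.

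Id1, a target that BMP Smads induce directly, had 665, 992 and 1038 in knock-out and 530, 865 and 1093 in wild-type brains, a log2 change of 0.18 ± 0.16 SE. The wild-type arrays ran past the knock-out range at both ends. Id2, a second BMP target, had a change of 0.14, and Tgfbi and Ctgf, which TGF-beta induces in many cells, had 0.12 and -0.035. The other Tgfbi probe sets, all above the filter, had the opposite sign, at -0.0038, -0.037 and -0.26. Of the 4 targets, 0 passed the test. The probe set used for Tgfbi, by its ending _x_at, and those used for Ltbp3 and Smad1, by _s_at, may also read related transcripts.

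The pathway has further genes that were not among the members, and none of them passed the test either. Of a list of 82, 73 had a probe set and 53 were tested; 30 had a higher and 23 a lower knock-out mean, 0 passed the test, and the median log2 change was 0.024. The smallest limma p belonged to Id4, an Id family target, with a log2 change of 0.26 ± 0.11 SE. Next to Tgif2 came Snai2, a transcription factor induced by TGF-beta, at 0.47 ± 0.22 SE, and Acvrl1, the endothelial type I receptor, at 0.36 ± 0.17 SE. Sostdc1, a BMP antagonist that is also one of the choroid plexus markers, had -0.61 ± 0.31 SE, and Hfe2, the BMP co-receptor hemojuvelin, had 0.21 ± 0.12 SE. Snai2, Acvrl1 and Hfe2 were dim beside the filter signal of 56.9. Their mean signals were 98.4, 117 and 89.7 in knock-out and 68.0, 89.9 and 76.1 in wild-type brains. Each of them has 2 probe sets, of which the brighter was used. The limma adjusted p of all 6 was 1.00. The summed signal of 10 choroid plexus markers lay at 9203 to 32425 in knock-out and 23306 to 39421 in wild-type brains, with 0 markers at 0 and its lowest value in knock-out 4. Most of this sum was its defining marker, Ttr, at 7408 to 28623 in knock-out and 20901 to 32620 in wild-type brains. Over all arrays Ttr had a mean signal of 24265, and the next brightest marker, Otx2, had 586. The part of this tissue in the Sostdc1 value was not tested.

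Within litters the members differed in both directions. Between littermates in litter 219, 37 of 46 members had a higher knock-out mean, against 69.9% of all genes, and the median difference was 0.21. In litter 250 it was 35 of 46, against 60.5%, with a median of 0.079. In litters 238 and 262, by contrast, 13 and 18 of 46 were higher, against 43.9% and 44.4% of all genes, with medians of -0.13 and -0.052. The share of all genes with a higher mean ranked the 4 litters in the same order as the members' count did. Of the ligands, 8, 1, 7 and 2 of 10 were higher in litters 219, 238, 250 and 262. Bmpr1b, Fst and Id1 were higher in all 4 litters and Bmp5 was lower in all 4. The share of all genes that kept their sign over the 4 litters was not counted, so these genes are named as a description only. The 16 markers of meninges and fibroblasts had 14, 2, 10 and 7 members higher in the same litters, and their part in these values was not tested. Litter 219 holds knock-out 2, wild-type 1 and wild-type 2, the array with the highest Actb 3′ to 5′ ratio (2.92). Wild-type 1 and wild-type 2 were the lowest wild-type arrays for 17.4% and 28.3% of the members, beside 31.6% and 30.8% of all genes. They were the highest for 28.3% and 21.7% of the members, beside 27.9% and 22.1% of all genes. The part of these arrays in the shift was not tested. Without litter 219 the members split into 21 higher and 25 lower over the remaining arrays, against 47.7% of all genes higher.

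**Figure D3:**
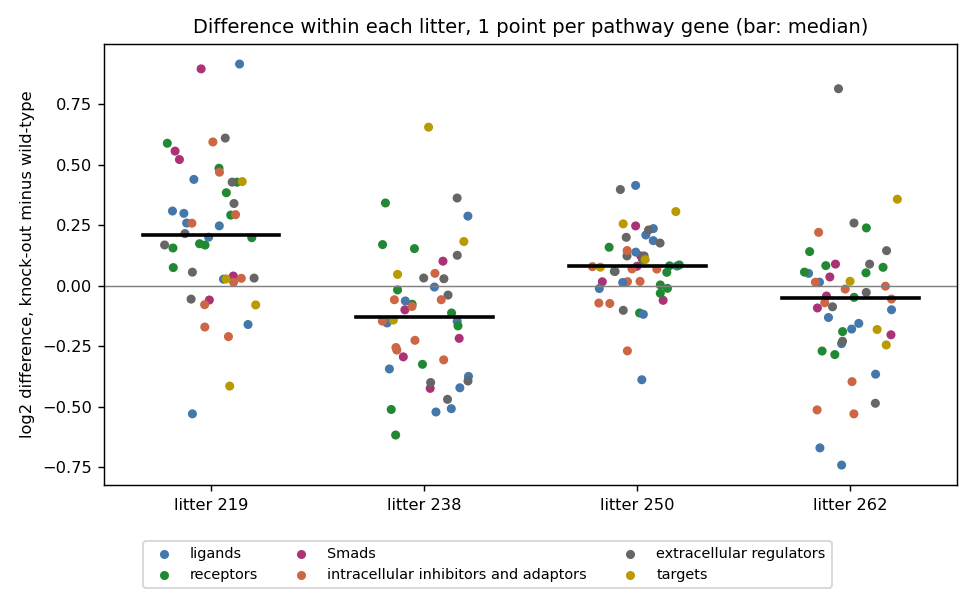
The plot of differences within litters shows the log2 difference, knock-out minus wild-type mean, for the 46 tested members in the 4 litters that held both genotypes; points are members coloured by role, spread sideways for legibility, and bars are medians. The bars stand at 0.21, -0.13, 0.079 and -0.052, above 0 in litters 219 and 250 and below it in the other two.

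The brains of litter 262 stood apart from the others in both genotypes. Wild-type 6 and knock-out 7, the 2 embryos of litter 262, had the lowest pathway signals: the members' median deviation from their mean over all arrays was -0.20 and -0.30 on the log2 scale, beside -0.070 and -0.092 for all genes. Knock-out 7 was the lowest knock-out array for 20 of 46 members (43.5%, beside 31.9% of all genes), and wild-type 6 the lowest wild-type array for 15 of 46 (32.6%, beside 20.7%). The same 2 arrays had the lowest summed signal of the 16 markers of meninges and fibroblasts, at 12474 (wild-type 6) and 11531 (knock-out 7) against 19312 to 35370 in the other 11 arrays. Its defining marker, Col1a1, lay at 317 to 1532 in knock-out and 534 to 2065 in wild-type brains, and 0 of the 16 were at 0. The genotypes overlapped in this sum, at 11531 to 31150 in knock-out and 12474 to 35370 in wild-type brains. These arrays were also lowest for the endothelial sum, at 6652 and 6470 against 8380 to 10451, and for the microglial sum, at 3612 and 3526 against 4186 to 6678. Their red cell sums were the lowest of the 13 too, at 2056 and 2034 against 2285 to 3860. Their mural sums were lowest only by a narrow margin, at 4888 and 4954 against 4981 to 7267. Their neuronal sums, at 111499 and 111401 against 84128 to 105386, were the highest. In whole brain, fewer cells of a type and less RNA per cell cannot be told apart.

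Across the 13 arrays, 5 members followed the meningeal marker sum past the threshold: the ligands Bmp4 and Bmp6, the receptors Tgfbr2 and Tgfbr3, and the inhibitory Smad6. This is a relation that was looked for after the data were seen. Each gene's log2(signal + 16) was correlated with log2 of the sum, with 100000 permutations of the arrays and Benjamini-Hochberg adjustment over all 12918 genes, for 3 marker lists (meninges, endothelium, choroid plexus). The 5 of 46 compare with 1.46% of all genes, and the median r was 0.39 over the members and 0.18 over all genes. Tgfbr2 had r = 0.96 (Spearman rho 0.85) and Bmp6 had r = 0.95 (rho 0.92), each with a permutation p of 1e-05, the smallest that these permutations can give, and an adjusted p of 0.00497. Tgfbr3 had r = 0.95 (rho 0.82) and Bmp4 r = 0.94 (rho 0.76), each with an adjusted p of 0.0111. Smad6 had r = 0.87 (rho 0.73, adjusted p = 0.0328). With Spearman's rho only Bmp6 passed (adjusted p = 0.0250), against 0.782% of all genes. Tgfb1, with r = 0.80, did not pass (adjusted p = 0.0551), while Tgfbr1 had r = -0.12.

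These calls did not hold without litter 262. Without wild-type 6 and knock-out 7, the 2 arrays farthest from the median of the sum, r was 0.81 for Bmp6, 0.86 for Tgfbr2, 0.74 for Tgfbr3, 0.73 for Bmp4 and 0.68 for Smad6 over 11 arrays, and 0 members and 0% of all genes passed the adjustment. With 1 array left out, 2 members passed without wild-type 3, without wild-type 6 or without knock-out 7, beside 0.511%, 0.395% and 0.224% of all genes, and 4 to 7 passed without any other array, beside 0.999% to 2.30%. Without litter 250 there were 0 (0% of all genes), without litter 238 there were 2 (0.604%), and after median centring 18 passed, along with 23.3% of all genes. After each litter's mean was taken from both measures, r over the 12 arrays with littermates was 0.89 for Bmp6, 0.84 for Tgfbr3, 0.82 for Smad6, 0.78 for Tgfbr2 and 0.65 for Bmp4. Permuting only within litters, the unadjusted p was 0.00347 for Bmp6, 0.0289 for Tgfbr2, 0.0399 for Smad6 and 0.0422 for Tgfbr3, while that of Bmp4, at 0.156, did not pass 0.05. The p-values above permute arrays across litters and do not allow for what littermates share. With the endothelial and with the choroid plexus sums, 0 members and 0% of all genes passed. Yet the median r with the endothelial sum was 0.43 over the members and 0.22 over all genes. The r with this sum was 0.91 for Tgfbr3, 0.85 for Tgfbr2, 0.84 for Bmp4, 0.83 for Bmp6 and 0.80 for Smad6. High values of r were therefore not particular to the meningeal sum. With the choroid plexus sum, most of which is the signal of Ttr, the same genes had r from 0.12 (Bmp4) to 0.25 (Tgfbr3). With the meningeal sum as a covariate in the comparison of genotypes, 0 members passed and the median log2 change was 0.049.

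The promoters of 4 of the 5 are shown so that the members that moved together can be read side by side (Tgfbr3 is not shown). They run from 250 bases before to 50 after the transcript start, 5′ to 3′ on the gene's strand, from RefSeq (GRCm38.p6). Capitals mark the palindrome GTCTAGAC, a sequence that Smad3 and Smad4 bind.
Bmp6 promoter, chr13:38345466-38345765, plus strand: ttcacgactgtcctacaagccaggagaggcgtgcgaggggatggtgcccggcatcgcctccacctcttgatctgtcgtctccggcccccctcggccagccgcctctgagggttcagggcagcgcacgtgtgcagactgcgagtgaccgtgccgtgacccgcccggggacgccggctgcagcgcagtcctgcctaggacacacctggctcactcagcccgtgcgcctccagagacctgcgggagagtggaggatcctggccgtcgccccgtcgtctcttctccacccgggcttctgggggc
Bmp4 promoter, chr14:46390620-46390919, minus strand: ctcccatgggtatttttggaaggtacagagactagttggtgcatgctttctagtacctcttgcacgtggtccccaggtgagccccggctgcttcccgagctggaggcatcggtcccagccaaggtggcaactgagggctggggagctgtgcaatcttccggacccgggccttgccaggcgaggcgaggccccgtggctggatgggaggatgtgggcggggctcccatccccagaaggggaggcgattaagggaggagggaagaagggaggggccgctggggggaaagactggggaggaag
Tgfbr2 promoter, chr9:116175314-116175613, minus strand: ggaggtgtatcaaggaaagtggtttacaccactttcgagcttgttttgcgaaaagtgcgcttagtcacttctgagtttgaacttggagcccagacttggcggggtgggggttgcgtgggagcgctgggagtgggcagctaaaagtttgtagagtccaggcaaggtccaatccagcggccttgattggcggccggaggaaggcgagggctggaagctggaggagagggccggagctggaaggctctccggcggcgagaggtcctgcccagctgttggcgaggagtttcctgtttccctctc
Smad6 promoter, chr9:64022010-64022309, minus strand: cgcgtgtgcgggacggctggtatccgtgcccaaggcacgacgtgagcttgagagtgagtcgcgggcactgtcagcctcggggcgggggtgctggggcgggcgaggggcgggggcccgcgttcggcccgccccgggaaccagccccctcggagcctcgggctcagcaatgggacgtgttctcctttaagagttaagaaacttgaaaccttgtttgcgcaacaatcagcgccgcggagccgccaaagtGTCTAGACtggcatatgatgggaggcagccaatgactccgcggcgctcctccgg

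The 3 short motifs searched were GTCTAGAC and GGCGCC, the latter bound by BMP-activated Smads, and GAGAGA, a GA-rich run; both strands were read, and none of the 3 contains another. Of the members, 33 had 45 windows of this length among 32851 for all genes. GTCTAGAC stood in 1 of the 45, that of Smad6, and in 0.213% of all windows. GGCGCC stood in 15 of 45 (33.3%), against 11.9% of all windows, among them those of Id2, Smad5 and Tgfbr1, and in 0 of the 4 printed here. This motif holds only G and C, and the windows compared were not matched for their G and C content. Windows rather than genes were counted, and some members had more than 1. GAGAGA or its complement TCTCTC stood in 10 of 45 (22.2%), against 23.9% of all windows. Those 10 include windows of Tgif1 and Chrd but not of Tgfb2 or Tgfbr1. A match describes the letters of this window and no binding was measured.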

How the data were processed

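The authors deposited linear probe set intensities, 1 per probe set and array, in a table of 45101 probe sets; the summary method and the scaling are not given in the sources used here. Per the labels' protocols, 5 µg of total RNA was made into biotin-labelled cRNA by the one-cycle procedure. The number of arrays limits the precision. Control probe sets (64) were left out. The platform annotation named 1 gene for 34945 probe sets, several for 932 and none for 9160. Members and lists were chosen with earlier results of these data known. Of 104 member probe sets, 88 passed the filter. Over all 104, with those below the filter included, the probe sets of 17 members differ in sign.

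Intensities became log2(signal + 16), which understates changes of dim genes. A gene was kept if its probe set's mean log2 value exceeded the 40th percentile of non-control probe sets. The genotypes were compared two-sided with lmFit and eBayes of limma 3.58.1 (R 4.3.3), without a litter term. Exact permutation tests were two-sided; the smallest p is 0.000583 over all splits and 0.00926 over the 108 splits within litters. Tests were checked on simulated data. Named in full are the TGF-beta ligands and receptors, Smad2, Smad3, the 10 members with the smallest limma p, and from the further pathway list the 6 with the smallest. Alternatives changed pseudocount, filter, scaling, probe set, covariates and arrays used. Replicate numbers do not pair the samples: same-numbered arrays deviated together with correlations of -0.26 to 0.40. Plots used matplotlib 3.10.9 in Python 3.11.15.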

Additional observations from a re-analysis of the deposited data

Results flagged for a closer look

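Of 94 sets of linear signals (47 genes in 2 genotypes), 8 had an array far from the others by Dixon's criterion. Normally distributed values would give about 1 in 20. The criterion was applied to the members only, and the share over all genes was not counted, so the 8 are named as a description. In wild-type 1, Skil was at 1274 against 2194 to 2673 in the other wild-type arrays, and Inhbb at 601 against 426 to 476. In knock-out 1, the only embryo of litter 148, Ltbp3 was at 1468 against 489 to 848 in the other knock-out arrays, and Fst at 389 against 128 to 238. In knock-out 2, Tgif1 was at 126 against 64.1 to 87.0, and Inhbb at 545 against 416 to 456. In knock-out 7, Tgfbr3 was at 214 against 461 to 639, and Bmp5 at 92.1 against 196 to 270. The 8 values fell on 4 arrays with 2 each. Among all genes, wild-type 1 was the lowest wild-type array for 31.6% and the highest for 27.9%. Knock-out 7 was the lowest knock-out array for 31.9%, and knock-out 1 and knock-out 2 the highest for 24.2% and 21.2%.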

How the results depend on the processing

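Under all 33 alternatives 0 members passed the threshold; the smallest adjusted p was 0.635, for several members after median centring. Testing every probe set above the filter, with those that name no gene or several, covered 27022 probe sets, and 17 of them passed the threshold. The main comparison had 3 genes past it. Permuting within litters took members at p under 0.05 from 1 to 0, while all genes went from 2.08% to 3.23%. The members' median was -0.15 after median centring, beside -0.15 for all genes. The members following the meningeal markers numbered 18 after median centring (23.3% of all genes), 2 without litter 238, 0 without litter 250 and 0 without litter 262. Without single arrays they numbered 2 to 7.

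Of the 16 members named in full, 6 kept their sign under every alternative that gave them a value. Median centring turned Tgfb1 to -0.14, Tgfb2 to -0.0053, Tgfbr1 to -0.10, Smad3 to -0.18, Bmpr1b to -0.017, Acvr2b to -0.018 and Id1 to -0.019. Quantile normalization turned Tgfb1 to -0.11 and Smad3 to -0.056, trimmed mean scaling Smad3 to -0.041, the RNA quality ratio as a covariate Tgfb1 to -0.055, and the litter block Smad2 to 0.097. Without litter 148, Smad2 was 0.076 and Smad3 -0.020; without litter 219, Tgfb1 was -0.024; without litter 238, Tgfbr3 was 0.040 and Smad2 0.0098; without litter 250, Smad3 was -0.083. Without wild-type 2 and knock-out 1, Tgfb1 was -0.055, Smad2 0.032 and Smad3 -0.018. Without single arrays Tgfb1 ran from -0.080 to 0.16, Smad2 ran from -0.088 to 0.076, Smad3 ran from -0.078 to 0.11, Tgfbr2 ran from -0.21 to 0.020 and Tgfbr3 ran from -0.21 to 0.13. The replicate block gave a members' median of 0.11, with Tgfbr2 at 0.020 and Tgfbr3 at 0.13, and 0 members passed; it leaves out knock-out 7, whose number has no partner. The cause of these turns was not tested. Filtering at the 60th percentile left 36 members tested. Dim members such as Smad9 have no usable value.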
